A study of Mus musculus with 24 samples.

Results

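The genes described here encode the 2 transcriptional co-activators at the end of the Hippo pathway, YAP (Yap1) and TAZ (Wwtr1), the 4 TEAD transcription factors that carry them to DNA (Tead1, Tead2, Tead3 and Tead4), and 2 Vestigial-like cofactors that bind the same TEAD factors (Vgll3 and Vgll4). They were found by symbol in the RNA-seq table of YAPCA cells, where all 8 were present among 35975 genes. Of the 30509 chromatin sites that the authors list as changed in these cells, 43 were assigned to the 8 genes.

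Periosteal cells, from the layer that covers the outside of bone, were cultured from wild-type C57BL6 mice and from mice that carry 3 modified alleles: a Cre transgene under the broadly active CMV promoter, a tetO transgene for YAP S127A, and a ROSA26 allele for the transactivator rtTA with EGFP. Cells of the second genotype are called YAPCA here, and both YAPCA groups carried all 3 alleles, so that by the labels they differed in doxycycline (Dox) alone. Each genotype was left untreated or given 1 µM Dox dissolved in water, and was profiled by RNA-seq and by ATAC-seq (a measure of open chromatin), 24 samples in 8 groups of 3. Technical replicate is the labels' word for the 3 samples of a group, so a p-value here reflects the spread among these samples, which may be technical. How long Dox was given is not stated in the sources used here. YAPCA RNA libraries held 16351891 to 28734643 reads counted over genes.

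As background, YAP and TAZ bind no DNA themselves. The LATS kinases of the Hippo pathway phosphorylate them, which holds them in the cytoplasm and marks them for breakdown, and the S127A form of YAP lacks a main LATS site. In the nucleus they bind TEAD factors, which recognise the letters GGAATG. VGLL proteins contact the TEAD surface that YAP and TAZ use. VGLL4 is known to compete with YAP for it, and VGLL3 acts as a TEAD cofactor of its own. In cells of the bone lineage, YAP and TAZ are known for roles in proliferation, differentiation and fracture repair.

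The promoters are shown first because the members are at once the partners of YAP and genes that may themselves carry the TEAD letters. RefSeq promoters (build GRCm38.p6, 250 bases before to 50 bases after a transcript start) were at hand for 6 of the 8 genes, without Tead1 and Tead4. GGAATG on either strand was found in a promoter of 5 of these 6 genes, against 16.6% of 27025 genes and 14.7% of 32851 promoters searched, and 9.40% of the 9690 promoters with a GC content of at least 60%. GC content of the members' promoters was 61.3% to 75.3%, against a median of 52.7% over all promoters. Each stretch below runs 5′ to 3′ on the gene's strand with 20 bases to either side, and capitals mark GGAATG or its reverse complement CATTCC.
Yap1, chr9:8004712-8004757, minus strand: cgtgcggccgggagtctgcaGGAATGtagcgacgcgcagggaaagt
Wwtr1, chr3:57576021-57576066, minus strand: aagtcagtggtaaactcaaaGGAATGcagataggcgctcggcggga
Tead3, chr17:28350689-28350743, minus strand: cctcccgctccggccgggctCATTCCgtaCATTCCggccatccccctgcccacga
Vgll3, chr16:65815106-65815151, plus strand: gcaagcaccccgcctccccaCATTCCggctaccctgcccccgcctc
Vgll4, chr6:114969260-114969305, minus strand: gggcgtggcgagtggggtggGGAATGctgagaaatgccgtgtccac

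Counted in bases from the transcript start, the match begins at -141 in Yap1, at -63 in Vgll3 and at -82 in Vgll4. Wwtr1 has 2 overlapping promoter windows that share 1 match. Tead3 has 3 promoter windows, and the stretch printed holds 2 matches spaced 3 bases apart. The AP-1 letters TGANTCA, searched on both strands, were in no promoter of the 6 genes, against 8.97% of all genes. Of the promoters with a GC content of at least 60%, 3.35% held them, so none among 6 genes is no contrast with that background. A match is a run of letters in a window and shows no binding, and its absence says only that these letters are not in that window.

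In YAPCA cells given Dox, RNA of Vgll3, Tead1, Tead4 and Vgll4 was higher, RNA of Tead2 was lower, and Yap1, Wwtr1 and Tead3 did not pass the test. The test was limma on log2(normalised read count + 1) over the 13477 genes whose mean was 10 or more, with a Benjamini-Hochberg adjusted p below 0.05 over all of them. A normalised read count is the authors' read count divided by 1 factor per sample. Of all tested genes 27.9% passed, 14.3% rising and 13.5% falling, and 41.0% had groups that did not overlap. Of the 8 members, 5 passed (4 rising and 1 falling) and 6 had groups that did not overlap. Their median log2 change was 0.15, against 0.0007 over all tested genes, and their median absolute log2 change was 0.26, against 0.11. In these bulk samples, a change in the number of cells that express a gene and a change in RNA per cell cannot be told apart.

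**Figure D1:**
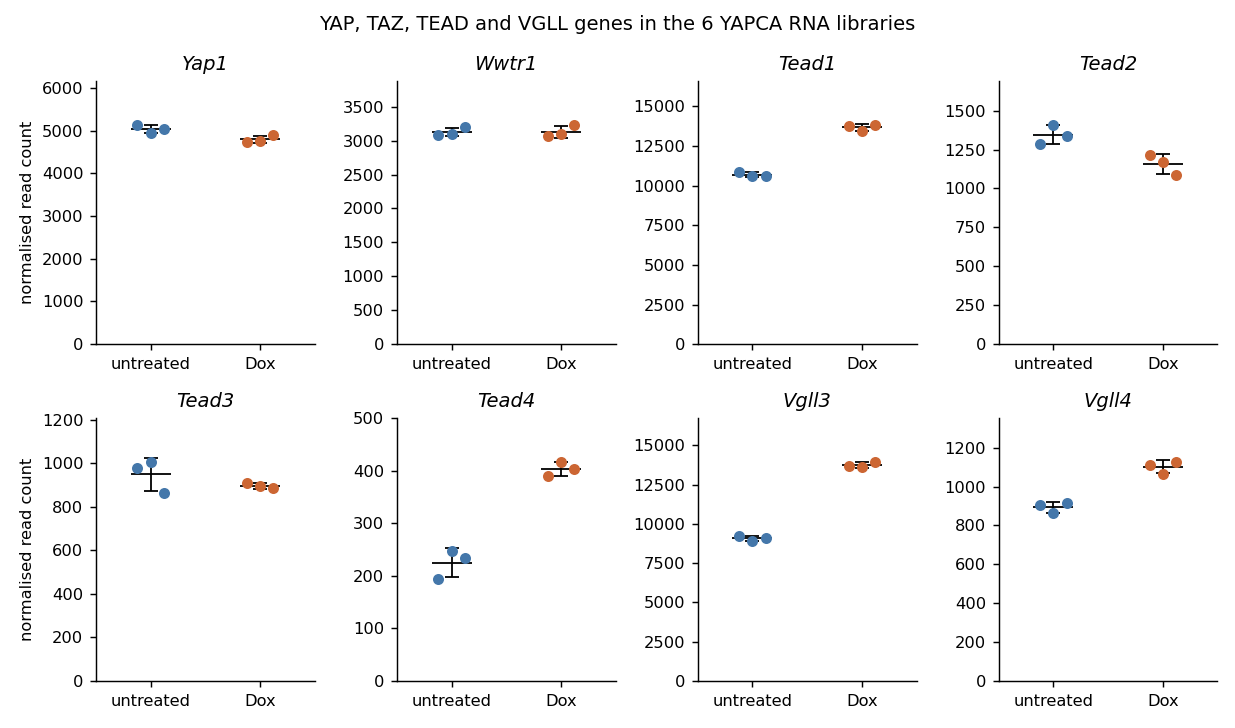
Normalised read counts of the 8 genes in each YAPCA RNA library, untreated in blue and Dox in orange, with 1 point a library and the mean ± SD (n = 3 per group) as bars, on a separate linear axis from 0 for each gene. The groups stand apart for Vgll3, Tead1, Tead4 and Vgll4, where Dox is higher, and for Tead2 and Yap1, where Dox is lower, while those of Wwtr1 and Tead3 overlap.

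The co-activators come first. Yap1 was at 5134, 4945 and 5042 normalised read counts in the untreated libraries and at 4732, 4766 and 4896 with Dox. All 3 Dox libraries lay below all 3 untreated ones, and the difference was small. Its log2 change was -0.07 ± 0.028 (SE, 95% interval -0.13 to -0.01, n = 3 per group), with a limma adjusted p of 0.0697 that missed the threshold, and it passed at -0.09 when Dox replicate 3 was left out (adjusted p = 0.0451). No source used here says whether reads of the YAP S127A transgene were assigned to Yap1, so its value does not check the labels.

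Wwtr1, which encodes TAZ, was at 3082, 3100 and 3197 normalised read counts in untreated libraries and at 3063, 3103 and 3232 with Dox. The groups overlapped almost fully. Its log2 change was 0.003 ± 0.032 (SE) with a 95% interval of -0.06 to 0.07 and a limma adjusted p of 0.964. Within each library, the log2 ratio of Yap1 reads to Wwtr1 reads was 0.74, 0.67 and 0.66 without Dox and 0.63, 0.62 and 0.60 with Dox, a quantity that no scaling factor can move. The ratio was lower in every Dox library, by 0.07 on the log2 scale, with an exact permutation p of 0.1, the smallest that 3 against 3 libraries allow.

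Among the TEAD factors, which share a DNA-binding domain and differ in where they are expressed, 2 genes rose, 1 fell and 1 did not pass. Tead1 was at 10843, 10620 and 10616 normalised read counts in the untreated libraries and at 13771, 13411 and 13821 with Dox. Each Dox library lay well above each untreated one. Its log2 change of 0.35 ± 0.024 (SE), or 1.28-fold, passed with a limma adjusted p of 2.56e-08.

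Tead4 went from 194, 247 and 234 normalised read counts to 389, 417 and 404, so that its lowest Dox library stood far above its highest untreated one. It had the largest log2 change of the 8 genes, 0.85 ± 0.089 (SE), or 1.79-fold (limma adjusted p = 2.56e-06), and this change was larger in size than those of 98.5% of tested genes. It also rested on the fewest reads, with 166 to 461 per library.

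Tead2 was lower with Dox, at 1286, 1408 and 1338 normalised read counts without Dox and 1212, 1172 and 1084 with it. The groups did not overlap, but the gap between the lowest untreated and the highest Dox library was close to the SD within a group, 61.2 and 65.8. Its log2 change was -0.22 ± 0.048 (SE, limma adjusted p = 0.00284), and it passed without each library in turn (adjusted p from 0.00327 to 0.0199).

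Tead3 did not pass, with 976, 1007 and 863 normalised read counts in untreated libraries and 910, 895 and 884 with Dox. Untreated replicate 3 was below all 3 Dox libraries and the other two untreated libraries were above them. The log2 change was -0.08 ± 0.054 (SE, 95% interval -0.19 to 0.04, limma adjusted p = 0.314). It was -0.15 and passed without untreated replicate 3 (adjusted p = 0.0311).

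Summed over the 4 TEAD genes, normalised read counts were 13210 ± 139 untreated and 16124 ± 202 with Dox (SD, n = 3 per group), 1.22-fold higher. Shares of the TEAD reads within a library do not depend on the scaling. They are shares of reads, not divided by transcript length, so they follow each gene between groups and do not rank the genes by molecules. Tead1 held 81.5, 79.96 and 81.3% of TEAD reads in the untreated libraries and 84.6, 84.4 and 85.4% with Dox. Its mean share was 3.82 percentage points higher with Dox.

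The share of Tead2 went from 10.2 ± 0.470% to 7.17 ± 0.415% (SD, n = 3 per group). That of Tead3 went from 7.18 ± 0.506% to 5.56 ± 0.0901%. Tead4 held 1.70 ± 0.217% without Dox and 2.50 ± 0.116% with it. In none of the 4 shares did the groups overlap. The shares add up to the whole and are not independent: where Tead1, with most of the reads, goes up, the share of a gene at a constant level goes down. The lower share of Tead3 is thus no sign that its own level fell. For each share the exact two-sided permutation p was 0.1, the smallest possible with 3 against 3 libraries, and 0.1 after Benjamini-Hochberg adjustment over these 4 shares and the Yap1 to Wwtr1 ratio.

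**Figure D2:**
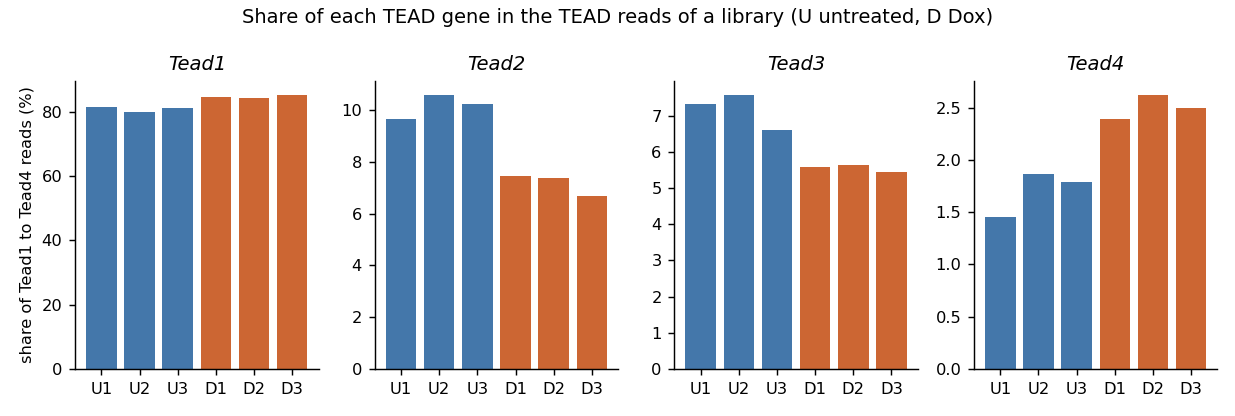
Share of each TEAD gene in the summed Tead1 to Tead4 reads of each YAPCA library, in percent, with 1 bar a library (untreated U1 to U3 in blue, Dox D1 to D3 in orange) and a separate axis from 0 for each gene. Every Dox bar is above every untreated bar for Tead1 and Tead4 and below every untreated bar for Tead2 and Tead3.

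The Vestigial-like genes were both higher with Dox. Vgll3 was at 9233, 8900 and 9071 normalised read counts in untreated libraries and at 13660, 13642 and 13960 with Dox. The spread within each group was small beside the distance between the groups, with SDs of 167 and 179. Its log2 change was 0.60 ± 0.025 (SE), or 1.52-fold, with the smallest adjusted p of the 8 genes (limma, 1.44e-10). It was among the most read genes of the table, with a mean normalised read count above that of 98.1% of tested genes.

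Vgll4, the competitor of YAP on TEAD, was at 904, 863 and 917 normalised read counts without Dox and at 1113, 1064 and 1129 with it. Again all Dox libraries exceeded all untreated ones. The log2 change was 0.30 ± 0.044 (SE), or 1.23-fold (limma adjusted p = 8.92e-05). The other two mouse Vestigial-like genes, Vgll1 and Vgll2, had no read in any of the 6 libraries. In the RefSeq annotation used here, no gene overlaps a member except Gm16016 at Wwtr1, which has no row in the RNA table, and Gm38876 at Vgll4, with 1 read in all. The sources used here do not say whether reads were counted by strand.

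The authors' deposited table, made with DESeq2, gives the same 5 members an adjusted p below 0.05. In the authors' deposited table the log2 changes are 0.60 for Vgll3, 0.35 for Tead1, 0.85 for Tead4, 0.30 for Vgll4 and -0.21 for Tead2. The value of the authors' deposited table for Yap1 is -0.07 with an adjusted p of 0.124.

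**Figure D3:**
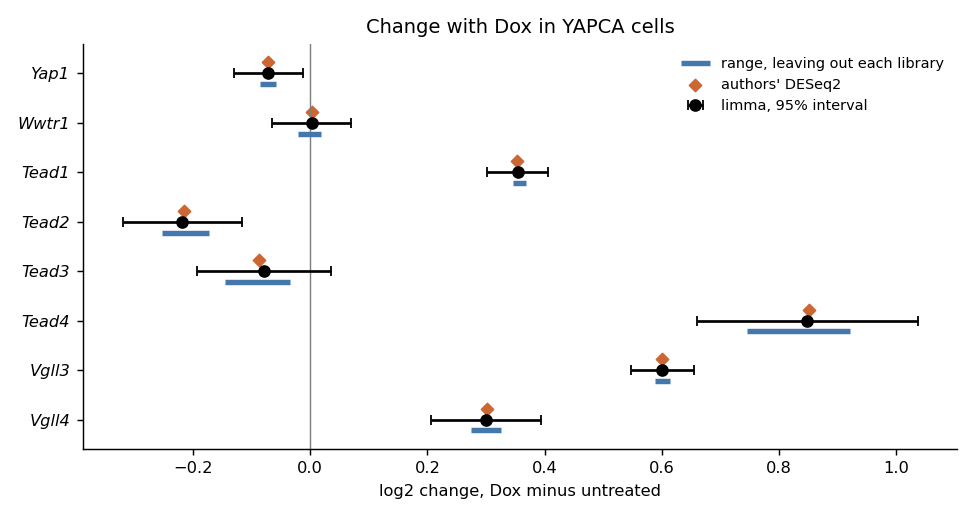
Log2 change of each gene with Dox in YAPCA cells, in log2 units of normalised read count + 1, from limma (black, with an unadjusted 95% interval), from the authors' deposited DESeq2 table (orange diamonds) and as the range over fits that leave out 1 library each (blue). The intervals of Tead1, Tead4, Vgll3 and Vgll4 lie above 0 and that of Tead2 below 0, from -0.32 to -0.12. The interval of Yap1 also ends below 0, although its adjusted p of 0.0697 missed the threshold.

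Genes with the profile most like each member were sought among the 10258 genes whose mean was 100 or more, by the root mean square difference of log2 values over the 6 libraries, each gene centred on its own mean. This measure is a description over 6 libraries that share 1 contrast. For Tead1, Cpeb2 was among the 2 nearest genes, at a difference of 0.018 log2 units. Vgll3 was nearest to Fmn1, a formin gene, at 0.010, and to Ets1, a transcription factor gene, at 0.021.

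The nearest genes of Tead4 were less close, Wwc1 at 0.047 and Gprc5a at 0.080, and Wwc1, whose product activates the LATS kinases, is itself in the list of upstream Hippo genes. Tead2 was nearest to Armc5 at 0.019 and Scx, a tendon transcription factor gene, at 0.021. Vgll4 was nearest to Nus1 at 0.016 and Lin7c at 0.018. For the 3 genes that did not pass, the nearest were Lsm14b (0.0068) and Caprin1 (0.0096) for Yap1, Tceal8 (0.0094) and Armcx2 (0.0097) for Wwtr1, and Fbrsl1 (0.013) and Tuba4a (0.019) for Tead3.

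Open chromatin was compared next, from the authors' deposited list of DiffBind sites, which holds only sites with an FDR of at most 0.05. A site's concentration is the authors' log2 read level of a group, its fold is Dox minus untreated on the log2 scale, and no value per sample is used here. Sites are in mm10, the build that the submitters' processing notes name. A site belongs to a gene when it overlaps the gene body or, outside all gene bodies, when that gene body is the nearest. The direction of every fold follows the headings of the main sheet, but the deposited sheet of chromosome 3 alone gives the 2 group headings the other way round for all 1932 sites that it shares, so gained and lost would trade places if that sheet were right.

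Of the 43 sites of the members, 39 were gained and 4 lost, 90.7% gained against 87.2% of all 30509 listed sites, a share near the background. Their median fold was 0.52, against 0.51 over all sites. Counts per gene differed widely, with 12 sites at Tead1, 11 at Vgll4, 10 at Vgll3, 5 at Wwtr1, 2 at Yap1, 2 at Tead4, 1 at Tead3 and 0 at Tead2. Of 21900 protein-coding genes, 69.8% held no listed site in the gene body, and 99.2% held fewer than Tead1 and fewer than Vgll4. Gene length differs as well: per 100 kb of gene body there were 13.7 sites in Vgll3, 10.1 in Vgll4, 5.23 in Tead3 (from 1 site), 4.84 in Tead1, 4.16 in Wwtr1, 2.75 in Yap1 and 2.71 in Tead4.

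At Vgll3 (chr16:65815189-65866368, plus strand), the authors' deposited table lists 9 gained sites and 1 lost. The only listed site over a promoter window of the 6 genes that have one lies here, at chr16:65814838-65815852. It covers the start of Vgll3 and the GGAATG match printed above, and its concentration was 10.55 untreated and 11.09 with Dox, a fold of 0.54 (authors' FDR 1.79e-14). The whole promoter under this site, chr16:65814939-65815238 on the plus strand, is shown because this is where RNA, accessibility and the TEAD letters can be set side by side, with the match in capitals.
Vgll3 promoter: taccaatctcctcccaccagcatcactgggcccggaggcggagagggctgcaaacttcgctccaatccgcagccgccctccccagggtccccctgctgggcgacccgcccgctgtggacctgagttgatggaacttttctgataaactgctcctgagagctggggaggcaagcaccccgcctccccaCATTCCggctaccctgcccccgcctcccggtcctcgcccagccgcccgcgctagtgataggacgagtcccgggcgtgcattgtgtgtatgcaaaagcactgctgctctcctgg

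The site with the smallest FDR at any member is also in Vgll3, about 13.2 kb into the gene at chr16:65828133-65828642. Its concentration in the authors' deposited table was 8.03 untreated and 9.04 with Dox, a fold of 1.01 (authors' FDR 8.78e-22). A site at chr16:65818697-65819296 had a fold of 0.39 (authors' FDR 1.97e-08). Outside the gene body lay gained sites 1240 bp before its lower end (fold 0.86) and 2543 and 19852 bp beyond its upper end (folds 0.52 and 1.09). The lost site, at chr16:65850068-65850668, had a fold of -0.30 and an authors' FDR of 0.0448, close to the limit of the list.

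All 12 sites of Tead1 (chr7:112679356-112906784) were gained in the authors' deposited table, with folds of 0.25 to 0.79 and a median of 0.52. The site with the smallest FDR, chr7:112720030-112720593 in the gene body, had a concentration of 10.5 untreated and 11.02 with Dox (fold 0.52, authors' FDR 1.05e-14). Another, chr7:112678438-112679461, covers the lower end of the gene, with a fold of 0.36 (authors' FDR 0.000128). Sites at chr7:112700085-112700527, chr7:112760626-112761088, chr7:112714839-112715064 and chr7:112710025-112710272 had folds of 0.52, 0.56, 0.74 and 0.51 in the authors' deposited table.

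Vgll4 (chr6:114860621-114970007, minus strand) held 10 gained sites and 1 lost, all inside the gene. Its largest fold, and the largest of all 43 sites, was at chr6:114961341-114961614, where the concentration in the authors' deposited table was 5.42 untreated and 6.72 with Dox (fold 1.31, authors' FDR 6.78e-09). This site lies with 3 other gained sites within 10 kb of the end of the gene with the higher coordinate, which is its start: chr6:114963767-114964015, chr6:114964325-114964476 and chr6:114967154-114967363, with folds of 0.70, 1.18 and 0.76. Further inside, sites at chr6:114941175-114941794, chr6:114948085-114948489 and chr6:114888899-114889391 had folds of 0.70, 0.58 and 0.33 in the authors' deposited table. The lost site, chr6:114874796-114874935, had a fold of -0.53 (authors' FDR 0.0371).

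Wwtr1 (chr3:57455644-57575910, minus strand) was the member with the most even split, 3 gained and 2 lost. The lost sites were neighbours, chr3:57510272-57510668, with a concentration of 8.5 untreated and 8.18 with Dox, and chr3:57512056-57512682, with 8.89 and 8.58. Their folds in the authors' deposited table were -0.32 and -0.30 (authors' FDR 0.0153 and 0.0121). The gained sites were chr3:57480736-57481071, chr3:57521854-57522191 and chr3:57550349-57551171, with folds of 0.55, 0.59 and 0.31.

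Yap1 (chr9:7931999-8004638, minus strand) held 2 gained sites in its body, chr9:7962936-7963083 and chr9:7965715-7965957, with folds of 0.66 and 0.54 (authors' FDR 0.00918 and 0.0132). At Tead4 (chr6:128227143-128300813) a gained site at chr6:128299657-128301151 covers the upper end of the gene, with a concentration of 9.94 untreated and 10.33 with Dox (fold 0.38, authors' FDR 0.000109), and another at chr6:128279712-128279912 had a fold of 0.52. Tead3 (chr17:28331671-28350805, minus strand) had 1 gained site, chr17:28340512-28341440, with a fold of 0.43 (authors' FDR 7.55e-09). No listed site was assigned to Tead2 (chr7:45215792-45233468, plus strand), and 69.8% of protein-coding genes held none in the gene body.

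**Figure D4:**
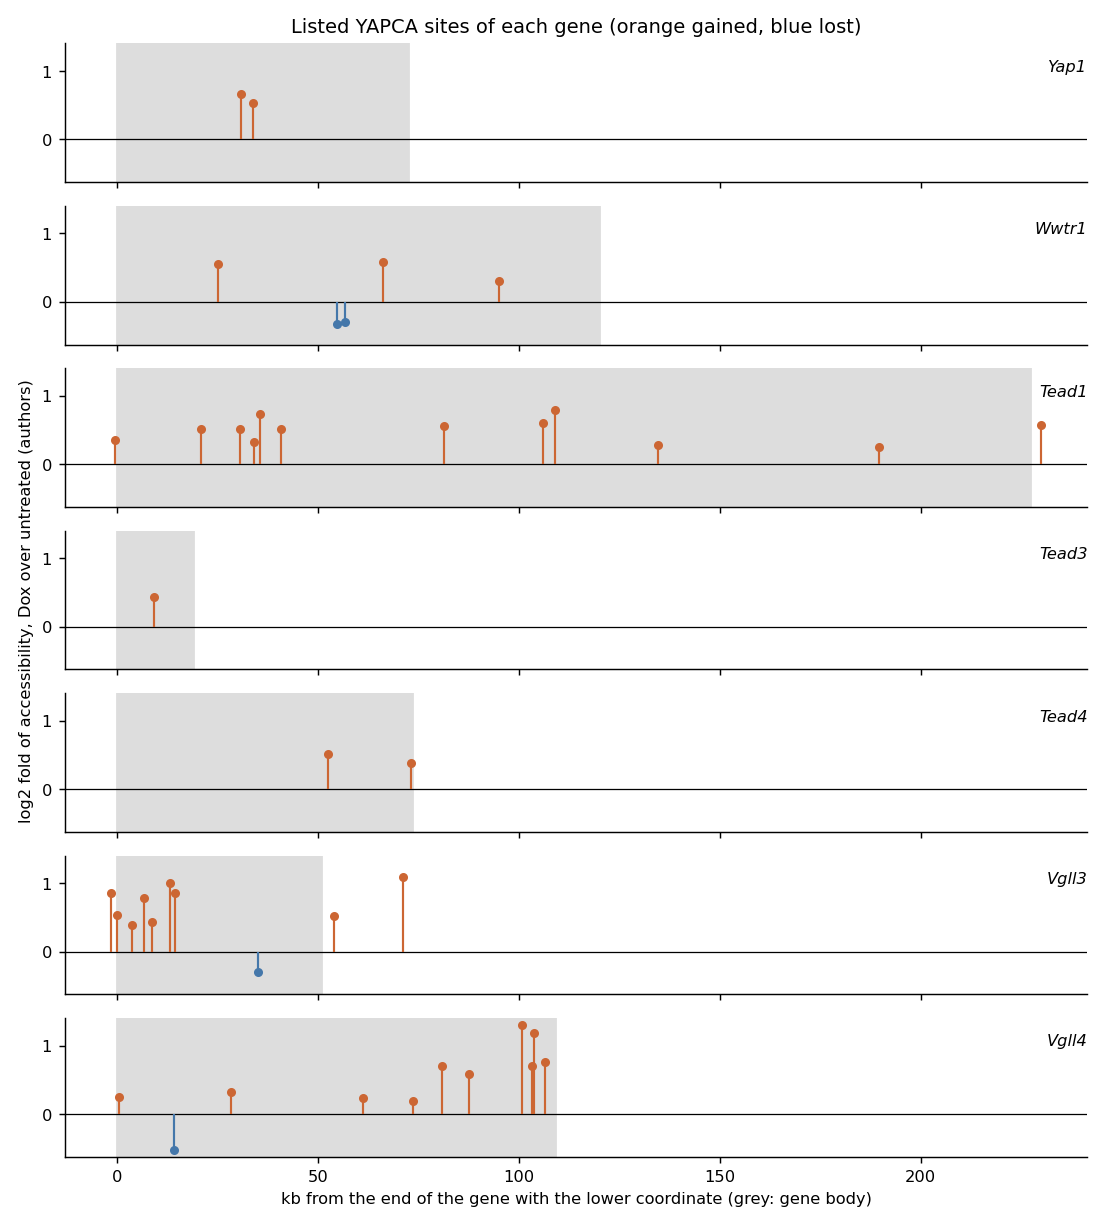
Listed YAPCA sites of the 7 genes that have any, at their distance in kb from the end of the gene with the lower coordinate (x axis) and with the authors' log2 fold, Dox over untreated (y axis). Orange marks gained sites, blue lost sites and grey the gene body. Sites crowd the first 15 kb of Vgll3 and the last 10 kb of Vgll4, they are spread along Tead1, and the 4 lost sites are 2 in Wwtr1 and 1 each in Vgll3 and Vgll4.

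The rest of the pathway was read from lists of upstream Hippo genes, YAP and TEAD targets, nuclear partners, and genes of cytoplasmic retention and turnover, each given by its counts in the same limma fit and by its median log2 change, beside 0.0007 over all tested genes. For every list, the shares to set beside its counts are 14.3% rising and 13.5% falling over all tested genes. Of 24 upstream Hippo genes 23 were tested, 14 rose, 0 fell and 9 did not pass, with a median log2 change of 0.14. The 3 with the smallest adjusted p were Lats2, Amot and Amotl2. Lats2, which encodes a kinase that phosphorylates YAP, rose by 0.70 on the log2 scale, from 2940 ± 46.2 to 4782 ± 22.8 normalised read counts (SD, n = 3 per group). Amot, an angiomotin gene whose product holds YAP outside the nucleus, rose by 0.88 on the log2 scale, from 1301 ± 21.0 to 2395 ± 76.9 normalised read counts. Amotl2, its relative, rose by 0.43.

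Within that list, and named after their values were seen, the other LATS gene, Lats1, rose by 0.13. Of the kinase genes listed besides those of LATS, Stk4 had a log2 change of 0.43, which passed, and Stk3 one of 0.03, which did not. Taok1 also passed, at 0.14, and Taok2, Taok3 and Map4k4 did not, at -0.05, -0.09 and -0.05. The adaptor genes Sav1 and Mob1a did not pass, at -0.01 and 0.06. Whether the response of 1 gene differs from that of another was not tested.

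Of 22 YAP and TEAD targets, all tested, 11 rose, 1 fell and 10 did not pass, with a median log2 change of 0.25. Lats2, Amotl2 and Ptpn14 stand in this list and in the upstream one. After Lats2, the smallest adjusted p belonged to Crim1, a transmembrane regulator of BMP signals, which rose by 0.49 on the log2 scale (5931 ± 171 to 8304 ± 125 normalised read counts), and to Ccn1 (listed as Cyr61), a secreted matrix protein gene, with a log2 change of 0.60. F3, the tissue factor gene, was the 1 that fell, by 0.12 on the log2 scale (limma adjusted p = 0.00343).

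Among the 22 nuclear partners more genes fell than rose. Of the 19 tested, 3 rose, 6 fell and 10 did not pass, with a median log2 change of -0.06. Runx1, a Runt transcription factor gene, was at 1788 ± 50.9 normalised read counts untreated and 1303 ± 85.3 with Dox, and its log2 change was -0.46 ± 0.045 (SE, limma adjusted p = 1.42e-06). Jund, which encodes a subunit of AP-1, a factor that often sits beside TEAD, had a log2 change of -0.63, and Fos, another AP-1 subunit gene, one of 0.54. The other genes that fell, named after their values were seen, were Jun, Junb, Fosl2 and Smad3, with log2 changes of -0.27 to -0.18. The other genes that rose, also named afterwards, were Cdk9, at 0.19, and Smad2, at 0.15.

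Among 11 genes of retention and turnover, 2 rose, 0 fell and 9 did not pass, with a median log2 change of 0.04. Of all tested genes 27.9% passed, so these counts say nothing particular about this list. Csnk1e, a casein kinase gene, had a log2 change of 0.30, and Ywhaz, of the family whose proteins hold phosphorylated YAP in the cytoplasm, one of 0.08.

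**Figure D5:**
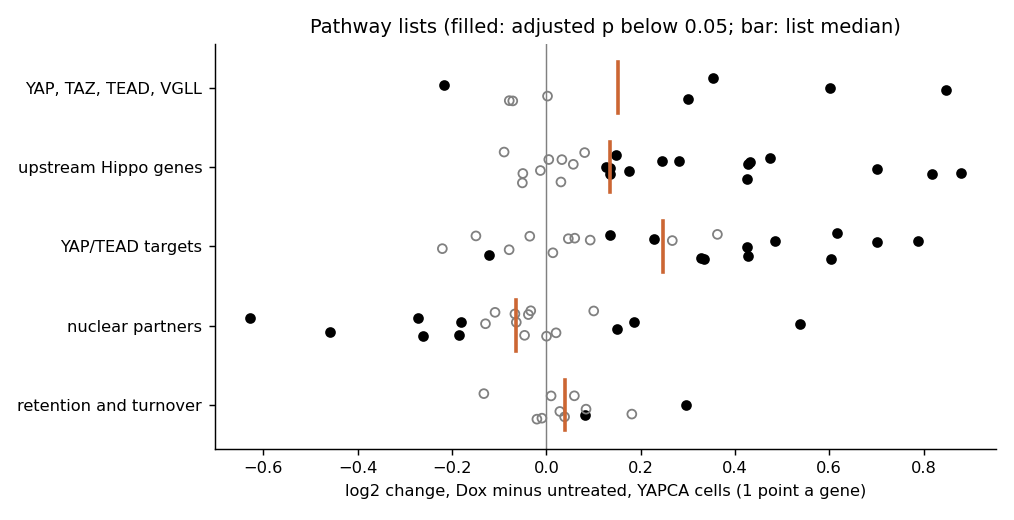
Log2 change with Dox in YAPCA cells (x axis, log2 units) of each tested gene of the 8 members and the 4 pathway lists, with 1 point a gene, filled where the limma adjusted p over all tested genes is below 0.05, and the list median as an orange bar. The medians are 0.15 for the members, 0.14 for upstream Hippo genes, 0.25 for targets, -0.06 for nuclear partners and 0.04 for retention and turnover.

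Markers of the labelled cell type moved in the same libraries. All 13 periosteal markers were tested, and 1 rose, 8 fell and 4 did not pass. Over all tested genes 14.3% rose and 13.5% fell, shares that apply to each marker list here. Their summed level was 582994 to 603771 normalised read counts in untreated libraries and 467089 to 479759 with Dox. Most of this sum, and of its drop, is Col1a1 (mean 307111 untreated and 222276 with Dox) and Col1a2 (220693 and 190546). It therefore says little about the other markers. Of these, Sp7 (log2 change -1.01), Pdgfra (-0.47), Prrx1 (-0.33), Postn (-0.23), Twist1 (-0.15) and Pdgfrb (-0.11) also fell. Eng rose, and Ctsk, Thy1, Ly6a and Runx2 did not pass. The epithelial markers Krt7 and Krt19 rose, 2 of 5 listed, with a summed level of 478 to 531 and 731 to 801, while Epcam, Cdh1 and Krt18 were too low to test. Endothelial (summed level 60.5 to 85.2 untreated and 80.8 to 118 with Dox), macrophage (341 to 386 and 335 to 345) and osteoclast markers (19.7 to 44.0 and 18.0 to 28.7) gave no call. Of 5 listed for each, only 3 endothelial, 3 macrophage and 2 osteoclast markers were high enough to test. The osteoclast marker Dcstamp was at 0 in every library. Of 5 muscle markers 2 were tested and 1, Acta1, fell. The summed muscle level, 1054 to 1220 and 984 to 1063, is mostly Acta1 (mean 1112 untreated and 1003 with Dox). The part of these shifts in the members' values was not tested.

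Wild-type cells were given the same Dox. The wild-type tables used here list 98 genes with an adjusted p below 0.05 and 42 sites. None of the 8 members is among these genes in the authors' deposited table, and no wild-type site lies at or within 50 kb of a member. Lists this short leave out most genes and sites, and how many were tested behind them is not known here, so a count of 0 says nothing particular about the members. The wild-type values of the members are not analysed here, so the difference between the genotypes was not tested.

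The authors' deposited tables of gene set scores hold 4 sets named for YAP, TAZ or Hippo signalling in each genotype that were chosen by rule. None has an authors' FDR below 0.05 in either genotype, against 12.8% of 4320 sets in YAPCA cells and 12.1% of 4333 in wild-type cells. The Reactome set for signalling by Hippo had the largest difference of the 4 in the authors' deposited tables, with a mean difference, Dox minus untreated, of 0.466 in YAPCA cells (FDR 0.174) and -0.494 in wild-type cells (FDR 0.0816). The other three differ by -0.05 to 0.05 in YAPCA cells, and in wild-type cells by -0.08, 0.06 and -0.286, the last for pathways regulating Hippo signalling (FDR 0.0618), in the authors' deposited tables. The other 3 sets were added after their names were seen. The set for a microRNA acting on YAP1 and the extracellular matrix has a difference of -0.665 in YAPCA cells (FDR 0.0279) and 0.0055 in wild-type cells (FDR 0.996), in the authors' deposited tables. The set for Hippo and Merlin signalling dysregulation has a difference of 0.175 in YAPCA cells (FDR 0.350) and of -0.287 in wild-type cells, where its FDR in the authors' deposited table is 0.0497. The Hippo-YAP signalling set has differences of 0.0870 (FDR 0.852) and -0.207 (FDR 0.604) in the authors' deposited tables.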

How the data were processed

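For RNA-seq the authors deposited a signal per gene and library, their normalised read count. Its columns gave whole reads for 100% of values (tolerance 0.01 read) after division by 1 factor each. That table's log2 fold changes and p-values are the authors' own, from DESeq2 per the file headers. The log2 concentrations, log2 folds, p-values and FDR of sites are the authors', per the file headers those of DiffBind, and for wild-type sites the authors deposited the same quantities in 1 joined text field (unit other). Gene set scores per sample are the authors', by a tool that the sources used here do not name. The submitters' processing notes also name HISAT2, Picard, featureCounts, Bowtie2, SAMtools, MACS2, bedtools and HOMER without versions.

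The members, gene lists and tests were chosen with earlier results of these data known. limma 3.58.1 (R 4.3.3, intensity trend, two-sided) was fitted to log2(normalised read count + 1) of the 3 untreated and 3 Dox YAPCA libraries over the 13477 genes whose mean was 10 or more. This scale understates changes of low genes. The fit was tested on simulated data. Alternatives were edgeR 4.0.16 (quasi-likelihood) and DESeq2 1.42.0 on the recovered reads, which called 3824 and 2843 genes, scaling by TMM, a pseudocount of 0.5 or 5, another filter or threshold, a replicate block and leaving out each library. Replicate libraries were distinct beyond counting noise (chi-square over degrees of freedom 1.76 to 3.19). Reads per library, 28734643, 24858356 and 16351891 untreated and 27482996, 23267531 and 20771096 with Dox, set the precision. Site depth is unknown. A further 27 lines of the RNA table are named by a date and none is named here. Named were all 8 members, up to 3 genes of a list by smallest adjusted p, the 2 nearest profiles, and up to 6 sites of a member by smallest FDR. A gene that this rule takes is not reported here. The lost sites of Vgll3 and Vgll4 and a further site near the start of Vgll4 were named after their values were seen. Shares and ratios were planned per kb and are given per read, since transcript lengths were not used here. A motif search in the sites was planned and was run in promoters alone.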

Additional observations from a re-analysis of the deposited data

Results flagged for a closer look

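Of the results described, 1 was singled out, because the groups moved in opposite directions under the same treatment. In the authors' deposited tables, the Reactome gene set for signalling by Hippo scored -0.104, -0.395 and -0.190 in untreated YAPCA libraries and 0.237, 0.0871 and 0.386 with Dox, a mean difference of 0.466 (FDR 0.174). In wild-type cells it scored 0.135, 0.0815 and 0.4997 untreated and -0.598, 0.0183 and -0.186 with Dox, a mean difference of -0.494 (FDR 0.0816). Neither difference has an authors' FDR below 0.05. Opposite signs were not particular to this set. In the authors' deposited tables, the differences for Hippo and Merlin signalling dysregulation were 0.175 in YAPCA cells and -0.287 in wild-type cells. Those for pathways regulating Hippo signalling were 0.05 and -0.286. The 2 genotypes were scored in separate tables and the difference between them was not tested.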

How the results depend on the processing

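Vgll3, Tead1, Tead4 and Vgll4 rose in every RNA fit tried, and Tead2 fell in every one. The number of members falling was 1 in the main analysis and 1 to 2 when each library was left out in turn, with Tead3 added without untreated replicate 3 (log2 change -0.15) and Yap1 added without Dox replicate 3 (-0.09). With a replicate block it was 2, with Yap1 at -0.07 and an adjusted p of 0.0355 (limma), and 4350 genes were called against 3757. Whether the numbers pair the libraries cannot be told from these values. Same-numbered libraries correlated at -0.0007, 0.036 and 0.085 in their deviations from the group mean. Untreated replicate 1 correlated best with Dox replicate 2 (0.051), and untreated replicates 2 and 3 with the Dox replicates of the same number. Correlations this near 0 do not decide it. At an adjusted p below 0.01, 2348 genes were called. Leaving out each library gave 2879 to 3583 called genes, a difference of 3.32 to 4.12 percentage points in the Tead1 share, and of -0.09 to -0.05 in the log2 ratio of Yap1 to Wwtr1 reads. Paired by number, the smallest p that 3 pairs allow is 0.25. Lost sites of the members numbered 4 in the authors' list, 0 at an FDR below 0.01 and 1 at an absolute fold of at least 0.5. Gained sites numbered 29 and 26 under these settings, 35 in gene bodies alone, 51 within 50 kb, and 43 with protein-coding genes alone as neighbours, a setting chosen after seeing the data. Of the recomputed counts 52 stayed within 1.5 times the main count and 6 did not. The shares and the ratio could pass no threshold under any setting, so their p says nothing about stability. Of the recomputed changes of single members 125 kept their side of the threshold and 3 passed that had not, and the change of Wwtr1, near 0, took either sign when libraries were left out (-0.02 to 0.02). The cause was not tested. Assignment by nearest transcription start and shares per kb were not run. Tead4 has the fewest reads and the widest interval among the members.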
